A study of Mus musculus with 8 samples.

Results

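The genes of the 14-3-3 protein family were examined in mouse medial prefrontal cortex (mPFC), in RNA bound to tagged ribosomes and in the unpurified RNA of the same tissue. The family was taken as 7 genes, Ywhah, Ywhag, Ywhab, Ywhae, Ywhaq, Ywhaz and Sfn, and its members were all probe sets whose annotation names 1 of these genes and no other, which gave 15 of the 41345 probe sets on the array and 7 of the 22180 genes named there. The family was picked because Ywhah was among the largest rises of pull-downs over inputs in the same arrays, so the differences between pull-down and input are given below as a description, with no test. All mice carried a ribosome tagged with green fluorescent protein that Cre switches on, and received CAV2-Cre, a canine adenovirus that is taken up at axon terminals and delivers Cre recombinase, in NAC or VTA, to which the labelled mPFC cells project per the labels. The 4 groups of 2 arrays each were VTA pull-downs and NAC pull-downs, purified with GFP-trap, and VTA inputs and NAC inputs, with no purification. The labels give no strain, age, sex or promoter of the tag. Nothing traces the arrays of a group to different animals or pools, so every p-value below reflects only how far these samples spread, which may be technical.

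14-3-3 proteins are small acidic proteins that pair as dimers and bind partners at phosphorylated serine or threonine residues. By binding they hold partners in the cytoplasm, mask their surfaces, change their activity or bring a pair of partners together. Neurons hold large amounts of them, and they are known there for roles in axon growth, neuronal migration, channel trafficking and transmitter synthesis. Each of the 7 proteins has its own gene: Ywhah codes for the eta protein, Ywhag for gamma, Ywhab for beta, Ywhae for epsilon, Ywhaq for theta, Ywhaz for zeta and Sfn for sigma, which is mainly known from epithelia.

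The arrays as a whole were alike, with correlations over all probe sets between 0.981 and 0.991 for the 4 pairs of replicates and between 0.973 and 0.988 for the 24 pairs that cross groups. Rpl10a, the ribosomal protein gene that such tags commonly extend, averaged 11.94 ± 0.01 in VTA pull-downs, 12.08 ± 0.04 in NAC pull-downs, 10.11 ± 0.34 in VTA inputs and 10.93 ± 0.02 in NAC inputs (log2, SD, n = 2 each). In limma, 9.6% of all genes rose and 32% fell in pull-downs averaged over the targets. Of the markers of other cell types, 11 of 13 oligodendrocyte genes, 10 of 11 microglial genes, 8 of 11 astrocyte genes, 8 of 14 interneuron genes and 5 of 10 vascular genes fell, and 1 vascular gene rose. Of 12 markers of glutamatergic projection neurons, 3 rose and 3 fell, and of 11 noncoding RNAs of the nucleus 9 fell. The mean level of the oligodendrocyte list was 8.69 to 8.79 on the pull-down arrays and 9.24 to 9.34 on the input arrays, and that of the projection neuron list was 10.23 to 10.38 on the pull-down arrays and 10.28 to 10.34 on the input arrays. What part these markers play in the values of the 14-3-3 genes was not tested. In bulk RNA, fewer cells of a type and less RNA per cell cannot be told apart.

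The probe set of Ywhah with the highest mean was the largest pull-down difference of the family. Its deposited log2 values were 9.83 and 9.66 in the VTA pull-downs and 9.23 and 9.64 in the NAC pull-downs, against 7.60 and 8.56 in the VTA inputs and 8.18 and 9.04 in the NAC inputs. All 4 pull-downs lay above all 4 inputs, and in each target the first input was lower than the second. The group means ran from VTA pull-downs, at 9.74 ± 0.12, through NAC pull-downs, at 9.44 ± 0.29, and NAC inputs, at 8.61 ± 0.61, to VTA inputs, at 8.08 ± 0.68 (SD, n = 2 each). Neighbouring groups in this order that share a preparation, the pull-downs and the inputs, did not pass the test given below. Pull-down minus input was 1.25 (SE 0.22) averaged over the targets, 1.67 (SE 0.32) for VTA and 0.83 (SE 0.32) for NAC, all on the log2 scale. The inputs of 1 group differed from each other by 0.96 for VTA and by 0.86 for NAC, and for NAC that is more than the NAC difference itself. Without both first inputs, left out after their values were seen, the averaged difference was 0.79. Leaving out the first VTA input put the VTA difference at 1.19, and leaving out the first NAC input put the NAC difference at 0.40.

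The other probe set of Ywhah showed no such difference. Its values were 7.78 and 7.79 in the VTA pull-downs and 7.92 and 7.84 in the NAC pull-downs, against 7.83 and 7.79 in the VTA inputs and 7.84 and 7.80 in the NAC inputs. The 8 arrays thus spanned 0.14 on the log2 scale, against 2.23 for the first probe set, and pull-down minus input was 0.02. The mean of both gave 0.63 for the averaged difference.

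**Figure D1:**
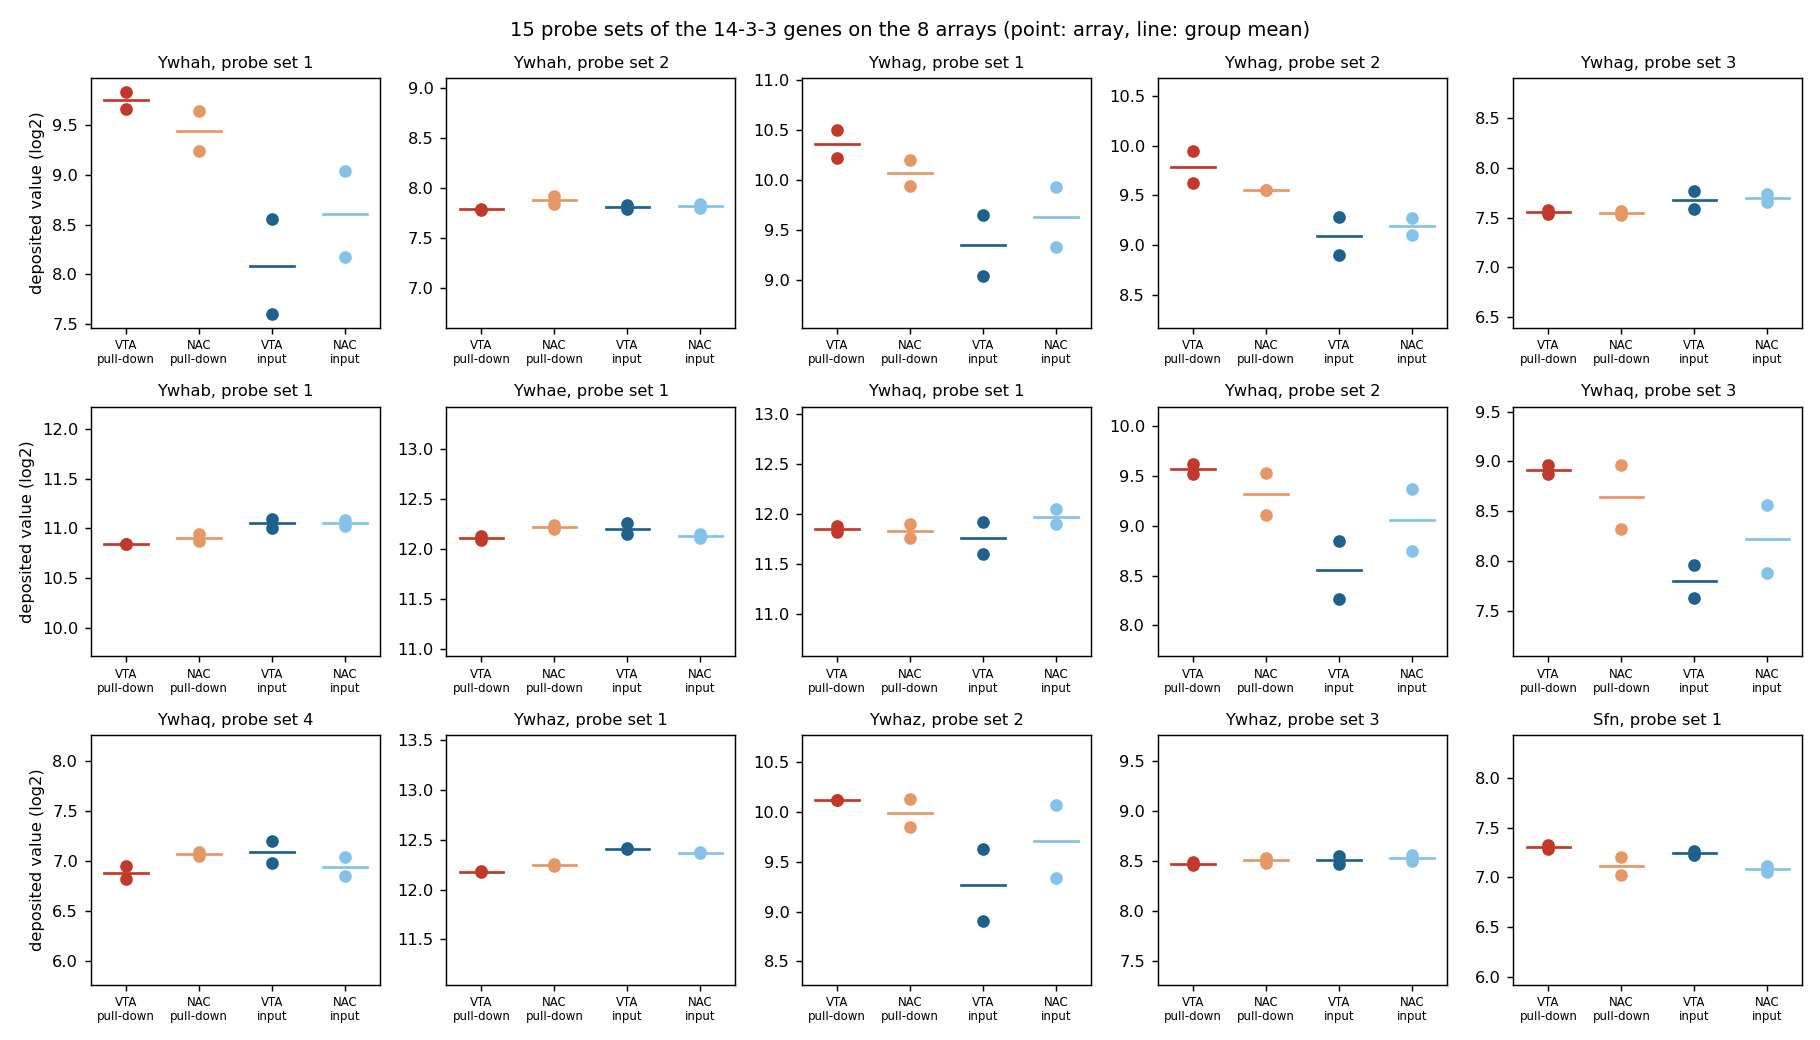
Deposited log2 values of the 15 probe sets of the 14-3-3 genes, with 1 point an array and a line at each group mean, and the same span of 2.5 on every vertical axis. Probe sets are numbered within a gene from the highest mean down, and Ywhah probe set 1 shows the widest spread while Ywhah probe set 2 is flat.

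Ywhag, whose gamma protein is abundant in neurons, had 3 probe sets and showed the same split. The first read 10.50 and 10.22 in the VTA pull-downs and 9.93 and 10.20 in the NAC pull-downs, against 9.04 and 9.65 in the VTA inputs and 9.33 and 9.93 in the NAC inputs. The lowest pull-down and the highest input both rounded to 9.93, and the groups only just stayed apart. Its averaged difference was 0.73 (SE 0.16), with 1.02 for VTA and 0.44 for NAC. Probe set 2 read 9.95 and 9.62 in the VTA pull-downs and 9.56 and 9.55 in the NAC pull-downs, against 8.90 and 9.28 in the VTA inputs and 9.11 and 9.28 in the NAC inputs, an averaged difference of 0.53. The third was lower in all 4 pull-downs, at 7.54 and 7.58 for VTA and 7.56 and 7.52 for NAC, against 7.58 and 7.77 in the VTA inputs and 7.65 and 7.74 in the NAC inputs, with a difference of -0.13. Its highest pull-down and lowest input both rounded to 7.58, so here too the groups only just stayed apart.

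Ywhaq, whose theta protein is found in neurons and in T cells, had 4 probe sets. The first, with the highest mean, had 11.82 and 11.88 in the VTA pull-downs and 11.76 and 11.90 in the NAC pull-downs, against 11.92 and 11.60 in the VTA inputs and 11.90 and 12.05 in the NAC inputs. These groups overlapped, and the averaged difference was -0.03 (SE 0.09). Probe sets 2 and 3 differed by 0.64 and 0.77. Probe set 2 had 9.52 and 9.62 in the VTA pull-downs and 9.11 and 9.53 in the NAC pull-downs, against 8.26 and 8.85 in the VTA inputs and 8.74 and 9.37 in the NAC inputs, so that pull-downs and inputs overlapped through the second NAC input. Probe set 3 had 8.96 and 8.87 in the VTA pull-downs and 8.32 and 8.96 in the NAC pull-downs, against 7.63 and 7.96 in the VTA inputs and 7.88 and 8.57 in the NAC inputs, with the same overlap. Probe set 4 differed by -0.04.

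Ywhaz, whose zeta protein is among the most studied of the family and binds tyrosine hydroxylase, had 3 probe sets. The first was lower in all 4 pull-downs, at 12.17 and 12.19 for VTA and 12.26 and 12.24 for NAC, against 12.42 and 12.40 in the VTA inputs and 12.38 and 12.36 in the NAC inputs. Its averaged difference was -0.18 (SE 0.06), and its second probe set had the opposite sign, at 0.57. That second probe set had 10.12 in both VTA pull-downs and 9.85 and 10.13 in the NAC pull-downs, against 8.90 and 9.63 in the VTA inputs and 9.34 and 10.07 in the NAC inputs. The third differed by -0.03 and spanned 0.10 over the 8 arrays.

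The remaining genes had 1 probe set each. Ywhab, which codes for the beta protein, had 10.84 in both VTA pull-downs and 10.87 and 10.94 in the NAC pull-downs, against 11.01 and 11.10 in the VTA inputs and 11.03 and 11.09 in the NAC inputs. All 4 pull-downs lay below all 4 inputs, with an averaged difference of -0.18 (SE 0.06). Ywhae, whose epsilon protein binds the dynein regulator Ndel1 and is needed for neuronal migration in mice, had 12.13 and 12.09 in the VTA pull-downs and 12.24 and 12.20 in the NAC pull-downs, against 12.26 and 12.15 in the VTA inputs and 12.15 and 12.11 in the NAC inputs. The VTA pull-downs were under their inputs and the NAC pull-downs over theirs, and the averaged difference was -0.00 (SE 0.06). Sfn had 7.29 and 7.33 in the VTA pull-downs and 7.02 and 7.20 in the NAC pull-downs, against 7.26 and 7.22 in the VTA inputs and 7.12 and 7.05 in the NAC inputs, a difference of 0.05 (SE 0.07). Over the 15 probe sets, 3 had all pull-downs above all inputs and 3 had all pull-downs below all inputs. Among the 12246 named probe sets that passed the filter on dim values, as all 15 did, these shares were 8.42% and 24.2%. Since Ywhah was chosen on this comparison, nothing is read from the counts.

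The 15 probe sets fell into a pair of patterns over the 8 arrays. With the first probe set of Ywhah, 5 others had a Pearson correlation of 0.94 to 0.99 over the 8 arrays: the first and second of Ywhag, probe sets 2 and 3 of Ywhaq and probe set 2 of Ywhaz. In these 6, pull-down minus input ran from 0.53 to 1.25, the first VTA input was the lowest array in 6 of 6, and the second NAC input exceeded the first by 0.17 to 0.86. The other 9 had correlations of -0.91 to 0.12 with it, differences of -0.18 to 0.05 and a span over arrays of 0.10 to 0.45. The bound of 0.9 was set after the values were seen, all points share the same 8 arrays, and the correlations are a description. The 6 were gathered by their likeness to Ywhah probe set 1, which is 1 of them. What they share in arrays and sign thus follows in part from that choice. Genes with more than 1 probe set, which were Ywhah, Ywhag, Ywhaq and Ywhaz, held both patterns.

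**Figure D2:**
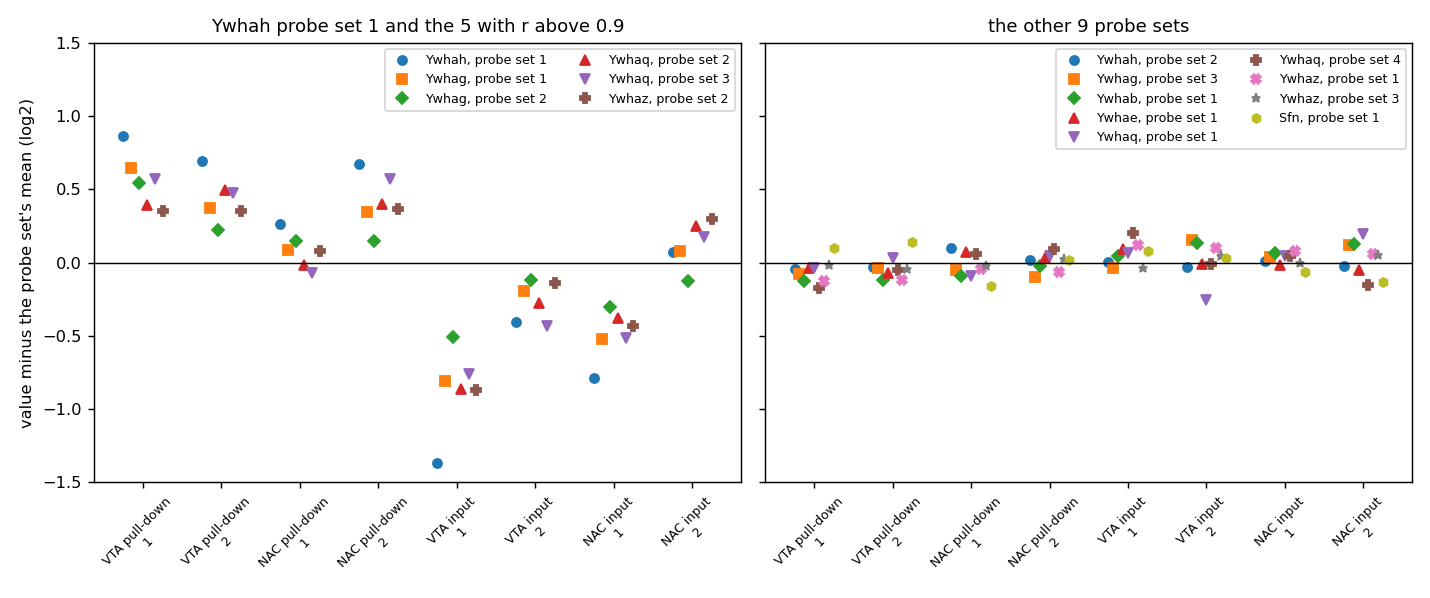
Deviation of each array from the probe set's own mean (log2), with 1 symbol a probe set. The 6 probe sets on the left move together and are lowest on the first VTA input, and the 9 on the right stay within a span of 0.45.

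The patterns were set beside the place of each probe set in the numerical order of identifiers. Identifiers on this array largely follow the genome: of 23325 named probe sets whose gene has a known chromosome, 97.2% had at least 15 of their 20 nearest named neighbours on that chromosome. The first probe set of Ywhah, 17447078, had 20 of 20 neighbours on chromosome 5, the chromosome of Ywhah, but 17 of the 19 with a known strand were genes of the minus strand, whereas Ywhah is on the plus strand. The other, 17436399, had 15 of 15 on the plus strand. Ywhag is on the minus strand of the same chromosome: its first probe set had 17 of 18 neighbours on the plus strand, and its probe set 3 had 15 of 15 on the minus strand. The first probe set of Ywhaq had 20 of 20 neighbours on chromosome 13, although Ywhaq is on chromosome 12, and the first of Ywhaz had 20 of 20 on chromosome 3, although Ywhaz is on chromosome 15. Of the 6 probe sets of the moving pattern, 2 stood among genes of the other strand, and 4 had fewer than 15 of 20 neighbours on their gene's chromosome. Those 4 differed among themselves: probe set 2 of Ywhag had 10 of 20 and probe set 2 of Ywhaq had 7 of 20, with the gene's chromosome the commonest in both, whereas probe set 2 of Ywhaz had 5 of 20 and probe set 3 of Ywhaq had 0. Among the 9 others, the first of Ywhaq and of Ywhaz were under this bound. Of the 7 probe sets that stood with their own gene, 1 for each member and 2 of them (Ywhab and Ywhaz) with the strand not known, the differences ran from -0.18 to 0.05. Strands and chromosomes are those of RefSeq on GRCm38.p6, and the probes' own sequences were not used here, so which transcripts each probe set binds was not tested. The reference table also lists 3 pseudogenes of Ywhaq, and values of probe sets with fewer than 15 such neighbours are uncertain.

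**Figure D3:**
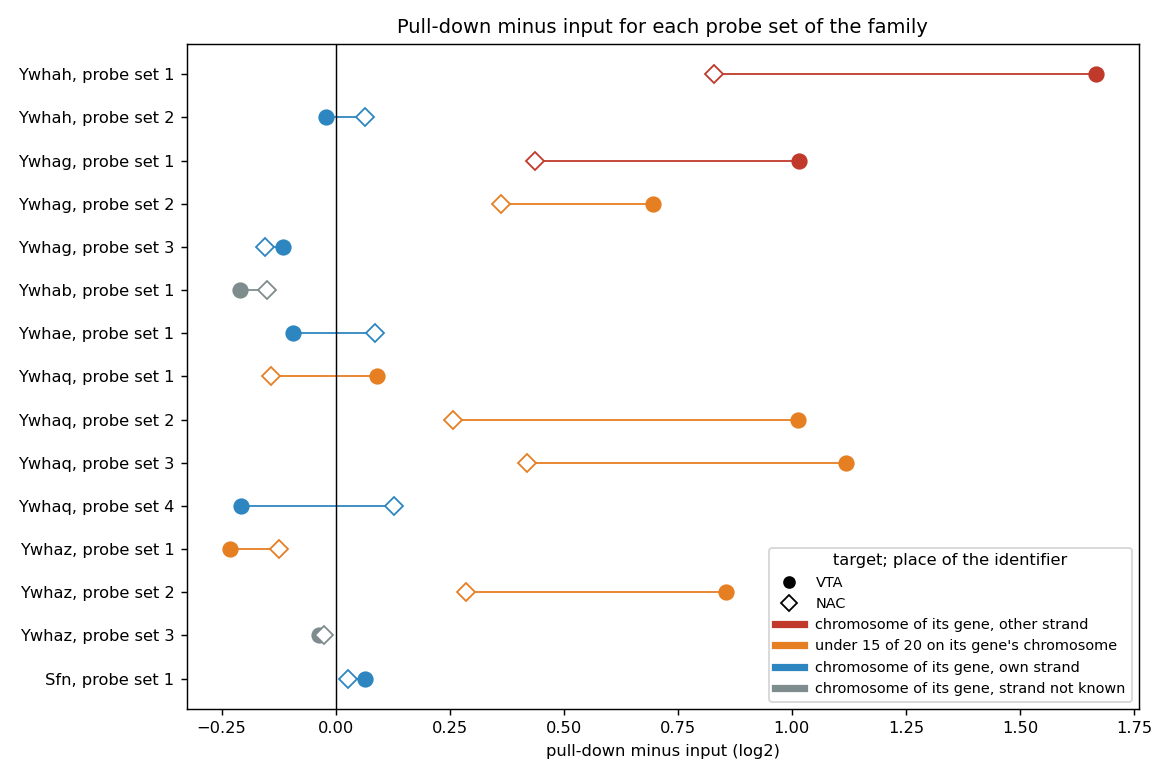
Pull-down minus input (log2) of each of the 15 probe sets, with filled circles for VTA and open diamonds for NAC, coloured by where the identifier stands among its neighbours. Ywhah probe set 1 reaches 1.67 for VTA and 0.83 for NAC, and probe sets that stand with their own gene lie close to 0.

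The place of the identifier was then compared over the whole array, as a description. Named probe sets that stood among genes of the other strand (198) had a median pull-down minus input of 0.28, and in 26.8% of them all pull-downs exceeded all inputs. Those with fewer than 15 of 20 neighbours on their gene's chromosome (424) had a median of 0.05 and a share of 20.8%, and those with their own gene and strand (8967) had a median of -0.12 and a share of 7.47%. The median level of the 198 was 6.61 and 6.49 on the VTA pull-down arrays and 6.45 and 6.51 on the NAC pull-down arrays, against 6.19 and 6.38 on the VTA inputs and 6.23 and 6.44 on the NAC inputs. The first input of each target was thus the lower one, as with Ywhah. For the 424 the inputs of a target lay close together, with a median level of 8.01 and 8.09 on the VTA pull-down arrays and 8.06 and 8.08 on the NAC pull-down arrays, against 8.02 on the second VTA input, with the first just below it, and 7.95 and 7.94 on the NAC inputs. The 6 family probe sets in that class had a median difference of 0.55, but they were split. The first of Ywhaq and of Ywhaz had -0.03 and -0.18, and the rest had 0.53 to 0.77. The rest were all among those gathered by their likeness to Ywhah probe set 1. The place rule, with at least 15 of 20 neighbours on the chromosome and at least 80% or at most 20% of them on the gene's strand, was set after the values of the family were seen.

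**Figure D4:**
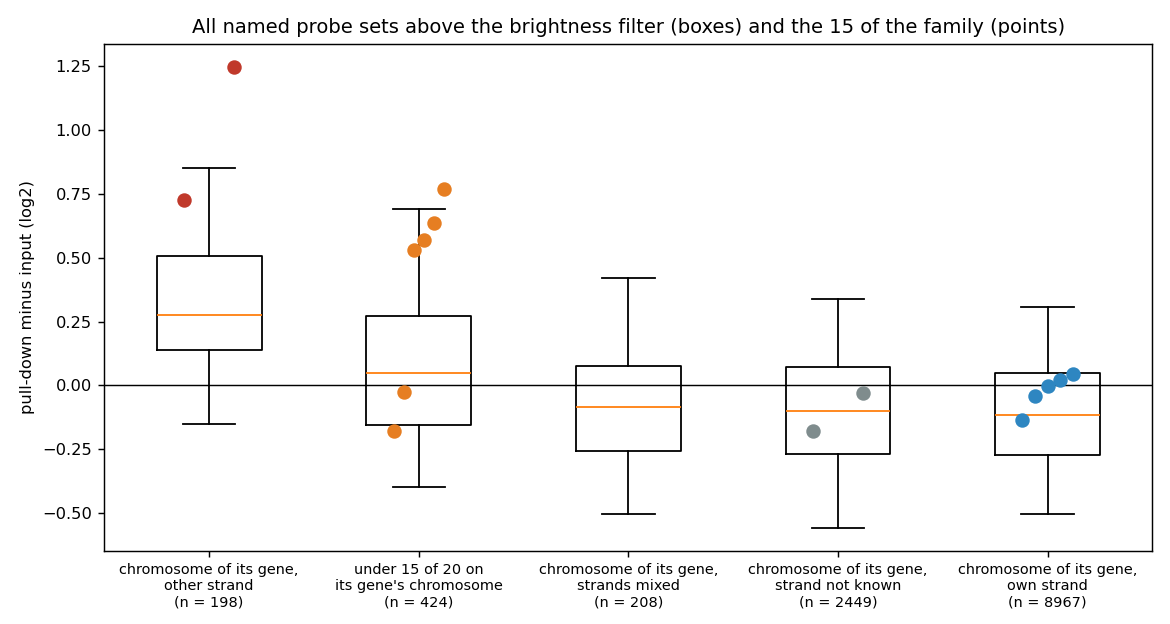
Pull-down minus input (log2) of all named probe sets above the filter by the place of their identifier, as boxes of the quartiles with whiskers to percentiles 5 and 95, and the 15 probe sets of the family as points. The boxes of the other strand and of the own strand have medians of 0.28 and -0.12, and the Ywhah and Ywhag points among the other strand lie above the upper quartile.

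The 5 genes outside the family whose 8 values were most like the first probe set of Ywhah, among all genes tested, were Gm5614 and Tpt1, the gene of translationally controlled tumour protein (Pearson r = 0.98 each), Rps28, a ribosomal protein gene (r = 0.98), the microRNA gene Mir874 and the tubulin gene Tubb2a (r = 0.97 each). Their averaged differences were 0.88, 0.85, 0.61, 0.31 and 0.20. The probe set of Tpt1 stood among genes of the other strand, that of Rps28 had fewer than 15 of 20 neighbours on its gene's chromosome, and that of Tubb2a with its own gene and strand.

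Promoter sequence was available from RefSeq for 5 of the 7 genes, without Ywhab and Ywhaz. Those of Ywhah and Ywhag, whose probe sets of highest mean had the largest pull-down differences among such probe sets of the 7 genes, and of Ywhae, whose difference was -0.00, are shown as the 250 bases before the transcription start on GRCm38.p6. Capitals mark GGGCGG (the GC box), CCAAT and TGACG (the shorter form of the cAMP response element) on either strand. They lie at chr5:33018566-33018815 on the plus strand, chr5:135934642-135934891 on the minus strand and chr11:75732637-75732886 on the plus strand, in that order.
Ywhah: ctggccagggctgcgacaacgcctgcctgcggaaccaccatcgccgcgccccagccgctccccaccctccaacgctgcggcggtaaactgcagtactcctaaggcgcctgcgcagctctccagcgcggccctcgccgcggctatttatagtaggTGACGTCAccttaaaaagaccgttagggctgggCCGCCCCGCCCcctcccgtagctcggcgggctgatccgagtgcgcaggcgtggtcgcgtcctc
Ywhag: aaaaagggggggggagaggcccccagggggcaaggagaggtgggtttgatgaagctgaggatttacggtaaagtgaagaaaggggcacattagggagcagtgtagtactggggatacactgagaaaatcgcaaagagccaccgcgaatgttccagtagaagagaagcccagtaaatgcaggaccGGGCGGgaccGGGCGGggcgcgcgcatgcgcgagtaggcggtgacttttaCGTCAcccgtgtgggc
Ywhae: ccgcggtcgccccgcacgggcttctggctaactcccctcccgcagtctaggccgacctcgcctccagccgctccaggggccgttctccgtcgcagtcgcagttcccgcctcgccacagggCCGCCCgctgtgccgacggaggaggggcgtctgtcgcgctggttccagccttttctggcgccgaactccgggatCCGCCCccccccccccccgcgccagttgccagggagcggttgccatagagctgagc
The whole element TGACGTCA was found 1 time in the Ywhah window, in 1.62% of the 27025 gene promoters cut to the same length, and in none of the other 4 family windows. The shorter TGACG, which the whole element also contains, was in the Ywhag window as well, and in 17.9% of all. GGGCGG occurred 2 times in each of the 3 windows and in 32.9% of all promoters. CCAAT was in the Ywhaq and Sfn windows, not shown, and in 34.5% of all. TATAAA was found 1 time in the Ywhah window, in none of the other 4 and in 12.97% of all. All motifs were searched on both strands. CACGTG was in none of the 5 windows and in 6.05% of all. The GC content was 68.8% for Ywhah, 58.4% for Ywhag and 73.2% for Ywhae, with a median of 52% over all promoters. A match of letters is a description and not a binding site.

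The targets were then compared, which asks whether 14-3-3 transcripts differ between cells or tissue labelled from VTA and from NAC. None of the 7 genes passed in VTA minus NAC pull-downs or inputs, and none of the 6 other than Ywhah in the difference of enrichment (limma, Benjamini-Hochberg over 11712 genes), and none had an unadjusted p under 0.05. Over all genes, 2.47%, 1.5% and 0.0683% passed in these comparisons. In the pull-downs, Ywhah differed by 0.31 (SE 0.32, limma adjusted p = 0.68), Ywhag by 0.30 (SE 0.23, limma adjusted p = 0.57) and Sfn by 0.19 (SE 0.10, limma adjusted p = 0.37). These were the largest pull-down differences among the probe sets of highest mean of the 7 genes. Probe sets 2 and 3 of Ywhaq, at 0.25 and 0.27, and probe set 2 of Ywhag, at 0.23, exceeded that of Sfn. Both VTA pull-downs lay above both NAC pull-downs for Ywhah, Ywhag and Sfn in their first probe sets. For the first probe sets of Ywhab, Ywhae and Ywhaz both VTA pull-downs lay below both NAC pull-downs. The share of all genes that separate in either way was not counted, so nothing is read from it. In the inputs, Ywhah differed by -0.53 (SE 0.32, limma adjusted p = 0.58), Ywhaq by -0.21 (SE 0.12, limma adjusted p = 0.56), Ywhag by -0.28 (SE 0.23, limma adjusted p = 0.69) and Sfn by 0.15 (SE 0.10, limma adjusted p = 0.60). Leaving out 1 array put the input difference of Ywhah between -1.01 (without the second VTA input) and -0.05 (without the first VTA input), and that of Ywhag between -0.59 and 0.02 (without the same arrays). Without the second NAC input they were -0.10 and 0.02, and without the first NAC input -0.96 and -0.58. Probe set 4 of Ywhaq, which stands with its own gene and strand, had an input difference of 0.15, opposite in sign to the -0.21 of probe set 1, and that of Ywhah probe set 2 was -0.01. The inputs of the targets overlapped for Ywhah, Ywhag and Ywhaq, and those of Sfn did not, again without a share over all genes to set it against. For the first probe sets of Ywhab, Ywhae and Ywhaz the target differences ran from -0.11 to 0.07 over pull-downs and inputs. Probe set 2 of Ywhaz had -0.44 in the inputs and 0.13 in the pull-downs (SE 0.26 each), and its probe set 3 had -0.02 and -0.03. Microglial markers were lower for VTA than for NAC in 5 of 11 genes in the pull-downs and 6 of 11 in the inputs, with 1 higher in each, and their part in these values was not tested. The enrichment of Ywhah was larger with VTA than with NAC by 0.84 (SE 0.45), which is given with no test because Ywhah was chosen on its enrichment. That of Ywhag was larger by 0.58 (SE 0.32, limma adjusted p = 0.49). Both values come from probe sets among genes of the other strand: in the probe sets with their own gene and strand they were -0.09 for Ywhah and 0.04 for Ywhag. In a fit over all 12246 probe sets none of the 15 passed in VTA minus NAC pull-downs or inputs. In the difference of enrichment none of those of genes other than Ywhah passed, and those of Ywhah are given with no test. Only the second of Ywhaq had an unadjusted p under 0.05, in the difference of enrichment (0.76, SE 0.33, limma adjusted p = 0.43). Ywhaq probe set 4, with its own gene and strand, had the opposite sign there (-0.34, SE 0.16, limma adjusted p = 0.45). Probe sets 1 and 3 of Ywhaq had 0.23 and 0.70.

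Genes of 14-3-3 partners, none of which is a member, were followed in 4 lists: kinases that phosphorylate the bound sites, signalling proteins, transcription regulators, and neuronal proteins. Of 90 tested partner genes, out of 109 listed, 4 rose and 34 fell in pull-downs averaged over the targets, which is 4.44% and 37.8%, against 9.6% and 32% of all genes. With each array centred on its median, 7 were higher and 20 lower, and with quantile normalization 10 were higher and 24 lower. Over all genes in either direction, 4866 passed in the main fit, 4084 with centring and 4347 with quantile normalization. Rises and falls of all genes were not counted apart under these settings or with arrays left out. The partner counts there thus have no share of all genes beside them. Of the 38 calls, 17 held in all 8 fits that left out 1 array. Without the second NAC pull-down 2 rose and 18 fell, without the first NAC input 2 rose and 19 fell, and without the first VTA input 1 rose and 18 fell. Without both first inputs 0 rose and 1 fell. The glial, vascular and nuclear RNA lists above fell in the same comparison, and their part in these counts was not tested.

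**Figure D5:**
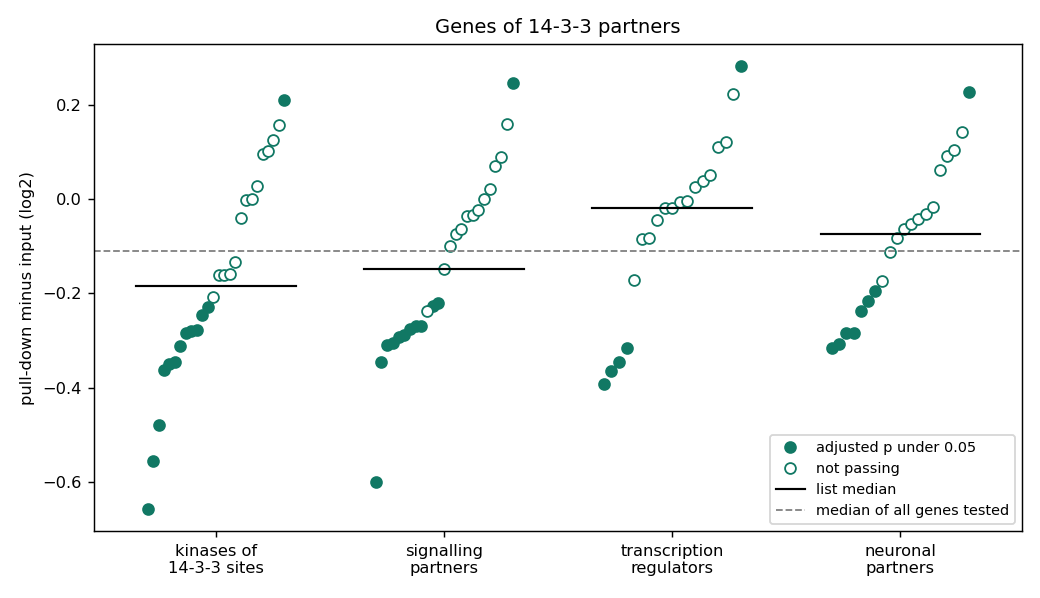
Pull-down minus input (log2) averaged over the targets for the 90 tested genes of 14-3-3 partners, with filled points for limma adjusted p under 0.05, a line at each list's median and a dashed line at the median of all genes tested (-0.11). Filled points lie mostly below the dashed line, and each list has 1 filled point above 0.

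Of 26 kinase genes, 1 rose and 12 fell, with a median of -0.18 against -0.11 for all genes. Camk1d, a kinase activated by calcium and calmodulin, averaged 8.71 in VTA pull-downs and 8.91 in NAC pull-downs, against 9.47 in VTA inputs and 9.47 in NAC inputs, and fell by 0.66 (SE 0.08, limma adjusted p = 0.00042). Prkaa2, a catalytic subunit of AMP-activated kinase, fell by 0.56 (limma adjusted p = 0.0020) and Sgk3, a kinase related to Akt, by 0.48 (limma adjusted p = 0.0043), and all of these calls held without any 1 array. Camk1 rose by 0.21 (limma adjusted p = 0.040), a call that held in 2 of 8 such fits. Prkaca, a catalytic subunit of protein kinase A, had -0.21 and did not pass. Of 25 signalling genes, 1 rose and 11 fell (median -0.15). Map3k2, a kinase of the MAP kinase cascade, fell by 0.60 (SE 0.13, limma adjusted p = 0.0058) and Lrrk2, a kinase known from Parkinson's disease, by 0.34, and both held without any 1 array, whereas Ssh1, a phosphatase of cofilin, fell by 0.31 and held in 6 of 8. Bad, which promotes apoptosis unless 14-3-3 proteins hold it, rose by 0.25 (SE 0.07, limma adjusted p = 0.016), with group means between 5.83 and 6.22, near the array medians over named genes. Its input means, 5.83 for VTA and 5.895 for NAC, lay under those medians, so Bad passed the filter mainly through its pull-downs. The call of Bad held in 7 of 8 fits and is only described. Where all 8 arrays had to exceed the median, 0 signalling genes rose.

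Of 19 transcription regulator genes, 1 rose and 4 fell (median -0.02). Foxo1, a forkhead factor that is kept out of the nucleus when bound, fell by 0.36 (SE 0.07, limma adjusted p = 0.0026) and Hdac4, a class II histone deacetylase, by 0.35, while Foxo6, a forkhead factor of brain, rose by 0.28 (SE 0.07, limma adjusted p = 0.010). These 3 calls held without any 1 array, and that of Mdm4, a regulator of p53 that fell by 0.39, held in 4 of 8. Of 20 neuronal partner genes, 1 rose and 7 fell (median -0.07). Rnd3, which codes for a small GTP-binding protein, fell by 0.32 (SE 0.06, limma adjusted p = 0.0047) and the potassium channel gene Kcnk9 by 0.31, and both held without any 1 array. Th, which codes for tyrosine hydroxylase, fell by 0.28 and held in 3 of 8, with a VTA pull-down mean of 5.75, under the array medians over named genes. Its input means, 6.18 for VTA and 6.04 for NAC, lay above those medians, so Th passed the filter mainly through its inputs. Ndel1, the partner of the epsilon protein, rose by 0.23 (limma adjusted p = 0.030), a call that held in 1 of 8. Klc1, a kinesin light chain gene, had 0.14 and did not pass. Between the targets none of the 90 passed in limma, and 6, 2 and 3 had an unadjusted p under 0.05 in the pull-downs, the inputs and the difference of enrichment.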

How the data were processed

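The 8 Affymetrix arrays were grouped by the source names, with replicate numbers from the titles; the sample descriptions call the inputs translating mRNA too, and the other label fields separate them. The authors deposited 1 log2 value per probe set and array, made with Transcriptome Analysis Console per the submitters' processing notes. Its version and settings are not stated there. The values were used as deposited, and the number of arrays limits the precision.

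Of 41345 probe sets, 23521 had 1 gene symbol in the platform annotation, 1814 several and 16010 none, and only those with 1 were named. Each gene was taken by the probe set of highest mean and kept if 2 or more of its 8 values exceeded the array's median over named genes (5.86 to 5.98), which left 11712 genes, all 7 members among them. Group means were fitted with limma 3.58.1 under R 4.3.3 (lmFit, eBayes, 4 residual and 6.07 prior degrees of freedom), with Benjamini-Hochberg adjustment and a threshold of 0.05. The fit was tested on simulated data.

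The members, gene lists and tests were chosen with earlier results of these data known. Named were the members, Rpl10a, the 5 genes most like Ywhah and, in each partner list, the called genes of largest rise and fall (up to 3 each) and some of the largest not called. Other scalings, filters, probe set rules, a variance trend, omitted arrays and a replicate block were tried; the place of identifiers and the fit without both first inputs were added after seeing the data.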

Additional observations from a re-analysis of the deposited data

How the results depend on the processing

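The number of family genes that passed stayed at 0 in VTA minus NAC pull-downs and inputs under every alternative that kept 2 arrays a group. The same held in the difference of enrichment without Ywhah, which is given no test there. The lowest limma adjusted p among these was 0.27, for Sfn in the pull-downs with quantile normalization. The choice of probe set moved the description of Ywhah: with the mean of the probe sets that passed the filter, pull-down minus input was 0.63 averaged over targets and 0.82 for VTA. With the probe set that stands with its own gene, chosen after seeing the data, it was 0.0214 averaged, 0.0644 for NAC and -0.0216 for VTA, which reverses the sign. Leaving out 1 array at a time gave 1.01 to 1.49 averaged, 1.19 to 2.15 for VTA and 0.40 to 1.26 for NAC. With each array centred it was 1.31 and with quantile normalization 1.31.

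Over all genes, 289 passed in VTA minus NAC pull-downs, against 113 with no filter, 119 with only the compared groups, 532 with limma's trend and 151 to 335 without 1 array. In VTA minus NAC inputs 176 passed, against 87 where all 8 arrays had to exceed the median and 100 to 206 without 1 array. In the difference of enrichment 8 passed, against 2 with quantile normalization, 1 with no filter and 30 with the trend. In the averaged pull-down comparison 4866 passed, against 3068 to 5065 without 1 array, and 826 without both first inputs, a fit with fewer arrays. With no filter, where dim partner genes among the 109 listed were tested too, 1 rose and 16 fell.

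Same-numbered pull-downs and inputs deviated together by r = 0.30 for NAC and r = -0.02 for VTA over the genes tested. These correlations cannot show whether arrays with the same number share animals or pools. Whether the numbers pair the arrays is not known, and the main fit treated them as unpaired. With a replicate block, Ywhah stayed at 1.25, 0 family genes passed between targets, 1 gene in all passed in the difference of enrichment, and 3 partner genes rose and 35 fell.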
